A study of Mus musculus with 25 samples.

Results

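Sarcomere isoform genes encode alternative versions of the same contractile protein that the heart exchanges between fetal and adult life. Here 10 sarcomere genes, some of them such fetal and adult partners, were followed. Chosen by symbol, they were Myh6, Myh7 and Myh7b (myosin heavy chains), Acta1 and Actc1 (sarcomeric actins), Tnni1, Tnni3 and Tnnt2 (troponin subunits), and Myl2 and Myl3 (myosin light chains). They are 10 of the 56941 genes of the count table, and all 10 were among the 17682 genes that passed the filter on low counts. The ratios Myh7/Myh6 and Tnni1/Tnni3 were also taken within each heart. RNA of 25 mouse hearts was sequenced after ribosomal RNA depletion, 1 library per heart. The mice were labelled WT or MCT1KO, the latter for loss of the lactate and pyruvate transporter MCT1, encoded by Slc16a1. Each genotype had hearts of mice given no pump, a saline pump or Ang/PE, neurohormonal agonists that the series description gives as the cause of myocardial hypertrophy. Without a pump there were 4 WT and 3 MCT1KO hearts, with saline 6 and 4, and with Ang/PE 3 and 5. The labels used here give no age, sex, strain, dose, infusion time, part of the heart, or promoter and cell type of the MCT1 deletion. They do not say whether the WT mice carried a floxed allele or a Cre transgene.

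Sarcomeres contract when myosin heads on thick filaments pull on actin thin filaments, and troponin on the thin filament makes that step depend on calcium. In the mouse ventricle the fetal myosin heavy chain Myh7 (beta, slower) gives way around birth to Myh6 (alpha, faster), the slow skeletal troponin I gene Tnni1 gives way to cardiac Tnni3, and the skeletal actin Acta1 gives way to cardiac Actc1. Return of Myh7 and Acta1 RNA, with natriuretic peptides, is a widely used marker of pathological hypertrophy. Myh7b is an ancient myosin whose protein is scarce in heart muscle, Tnnt2 is cardiac troponin T, and Myl2 and Myl3 are the ventricular regulatory and essential light chains, which serve as markers of ventricular against atrial muscle.

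The 3 myosin heavy chain genes each hold a microRNA in an intron, on the same strand, in the GENCODE M21 annotation (GRCm38). The mature sequences from the RefSeq table (GRCm38.p6) are shown because they tie the 3 genes together, with the seed (bases 2 to 8) in capitals.
mmu-miR-208a-3p (Myh6 intron, chr14:54949072-54949093, minus strand): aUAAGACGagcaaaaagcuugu
mmu-miR-208b-3p (Myh7 intron, chr14:54975710-54975731, minus strand): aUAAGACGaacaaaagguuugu
mmu-miR-499-5p (Myh7b intron, chr2:155622893-155622913, plus strand): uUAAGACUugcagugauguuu
The microRNAs of Myh6 and Myh7 share the seed UAAGACG, and that of Myh7b has the seed UAAGACU. Mature microRNAs were not measured in these libraries. The 250 bases before the start of Myh6, Myh7, Acta1 and Actc1, also from RefSeq (GRCm38.p6), are shown because these are the fetal and adult partners whose values are compared.
Myh6, chr14:54966608-54966857, minus strand: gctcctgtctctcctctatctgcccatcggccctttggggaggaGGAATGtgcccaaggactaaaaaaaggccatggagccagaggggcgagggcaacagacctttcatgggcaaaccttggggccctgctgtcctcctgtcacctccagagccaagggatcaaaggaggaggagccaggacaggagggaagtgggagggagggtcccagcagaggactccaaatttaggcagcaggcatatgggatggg
Myh7, chr14:54994550-54994799, minus strand: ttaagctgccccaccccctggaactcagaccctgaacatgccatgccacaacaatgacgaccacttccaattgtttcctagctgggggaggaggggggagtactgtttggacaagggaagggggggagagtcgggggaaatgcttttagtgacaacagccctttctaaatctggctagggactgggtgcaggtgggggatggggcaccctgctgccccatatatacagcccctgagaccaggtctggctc
Acta1, chr8:123894776-123895025, minus strand: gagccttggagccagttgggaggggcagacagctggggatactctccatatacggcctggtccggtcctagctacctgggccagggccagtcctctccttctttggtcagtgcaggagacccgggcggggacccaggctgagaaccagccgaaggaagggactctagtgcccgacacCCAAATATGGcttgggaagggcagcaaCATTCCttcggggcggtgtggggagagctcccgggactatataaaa
Actc1, chr2:114052876-114053125, minus strand: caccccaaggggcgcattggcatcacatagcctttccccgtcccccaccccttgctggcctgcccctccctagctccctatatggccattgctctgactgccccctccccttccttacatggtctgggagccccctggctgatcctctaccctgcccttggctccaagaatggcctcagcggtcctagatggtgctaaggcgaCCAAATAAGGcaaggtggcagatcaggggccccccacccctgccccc
Capitals mark matches to 2 motifs of muscle promoters, searched on both strands in this window for all 10 genes: MCAT (CATTCC, or GGAATG on the other strand), to which TEAD factors bind, and the CArG box, to which SRF binds. An MCAT match stood 206 to 201 bases before the start of Myh6 and 46 to 41 bases before that of Acta1. The CArG box matched 73 to 64 bases before the start of Acta1 and 47 to 38 bases before that of Actc1. Of 32851 promoter windows of this length, 12.6% held MCAT and 1.47% the CArG box, against 3 of the 10 genes for each (Myh6, Acta1 and Myl3, and Acta1, Actc1 and Myl3). AGGTCA, the core of a thyroid hormone response element, was in 2 of the 10 (Myh7b and Myl2) and in 14% of all windows, and the MEF2 site was in 0 of 10 and 0.508%. For Myh7 the table lists 2 starts, the more downstream of which was used, and no motif matched. A match here is a match of letters only.

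Libraries held 12216704 to 24880683 counts, of which 8.87 to 18.4% fell in mitochondrially encoded genes. The genotype check was not met at the RNA level: Slc16a1 stood at 233, 222, 150.3 and 204 CPM (counts scaled to the library size with TMM factors) in WT and 209.8, 223 and 167 CPM in MCT1KO hearts without a pump. The log2 fold change of MCT1KO over WT was -0.02 (95% interval -0.34 to 0.30), -0.33 with saline and -0.18 with Ang/PE (adjusted p = 0.976, 0.219 and 0.807). Genotype therefore rests on the labels, and MCT1KO hearts below are the libraries labelled so. Saline hearts stood apart in markers of atrial muscle (Myl4, Myl7, Sln, Mybphl and Bmp10), whose summed level was 1.71 to 6.70 CPM in the 15 other hearts, 2.50 to 1438 CPM in WT saline and 1.75 to 4040 CPM in MCT1KO saline hearts. It passed 50 CPM in 4 of 6 WT and 3 of 4 MCT1KO saline hearts and in no other heart. The Ang/PE steps against saline are therefore also given without these 7, which leaves 2 WT and 1 MCT1KO saline hearts. Of the hearts kept, WT saline heart 2 still summed to 22.3 CPM, with 4 of the 5 markers above 1 CPM. In MCT1KO saline heart 4, which had the highest atrial sum, adipocyte markers (Adipoq, Plin1, Cidec, Ucp1 and Fabp4) summed to 1510.3 CPM, against 143 to 375 CPM in the hearts without saline. The summed skeletal muscle markers were 4.78 to 13.1 CPM in all 25 hearts. Xist, which marks female mice, passed 100 CPM in 2 of the 4 WT no-pump hearts, 1 of the 6 WT saline hearts and all 3 WT Ang/PE hearts. Among MCT1KO hearts it did so in 0 of the 3 no-pump, 3 of the 4 saline and 4 of the 5 Ang/PE hearts, so sex was unevenly spread over the groups.

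Levels were compared between genes per kilobase of the transcript with the longest coding sequence in GENCODE M21, as the median CPM per kilobase over 25 hearts. The adult cardiac genes filled the top of the order, with Myl2 at 6189, Actc1 at 5040.1, Myh6 at 4647, Myl3 at 3522, Tnnt2 at 2897 and Tnni3 at 2776 CPM per kilobase. The ranges over hearts of neighbours among these 6 overlapped. Acta1 followed at 157, Myh7 at 65.8 and Myh7b at 22.4, and Tnni1 was last at 0.313 CPM per kilobase, with 1 to 30 counts in any heart. The 3 fetal isoforms varied most: the highest heart exceeded the lowest 27.1-fold for Myh7, 26.5-fold for Acta1 and 33.1-fold for Tnni1, against 1.92-fold for Myh6 and 1.96-fold for Tnnt2. Within groups the biological coefficient of variation was 0.545 for Myh7, 0.566 for Acta1 and 0.562 for Tnni1, and 0.135 for Tnnt2. The 10-panel plot of CPM by heart shows these levels.

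**Figure D1:**
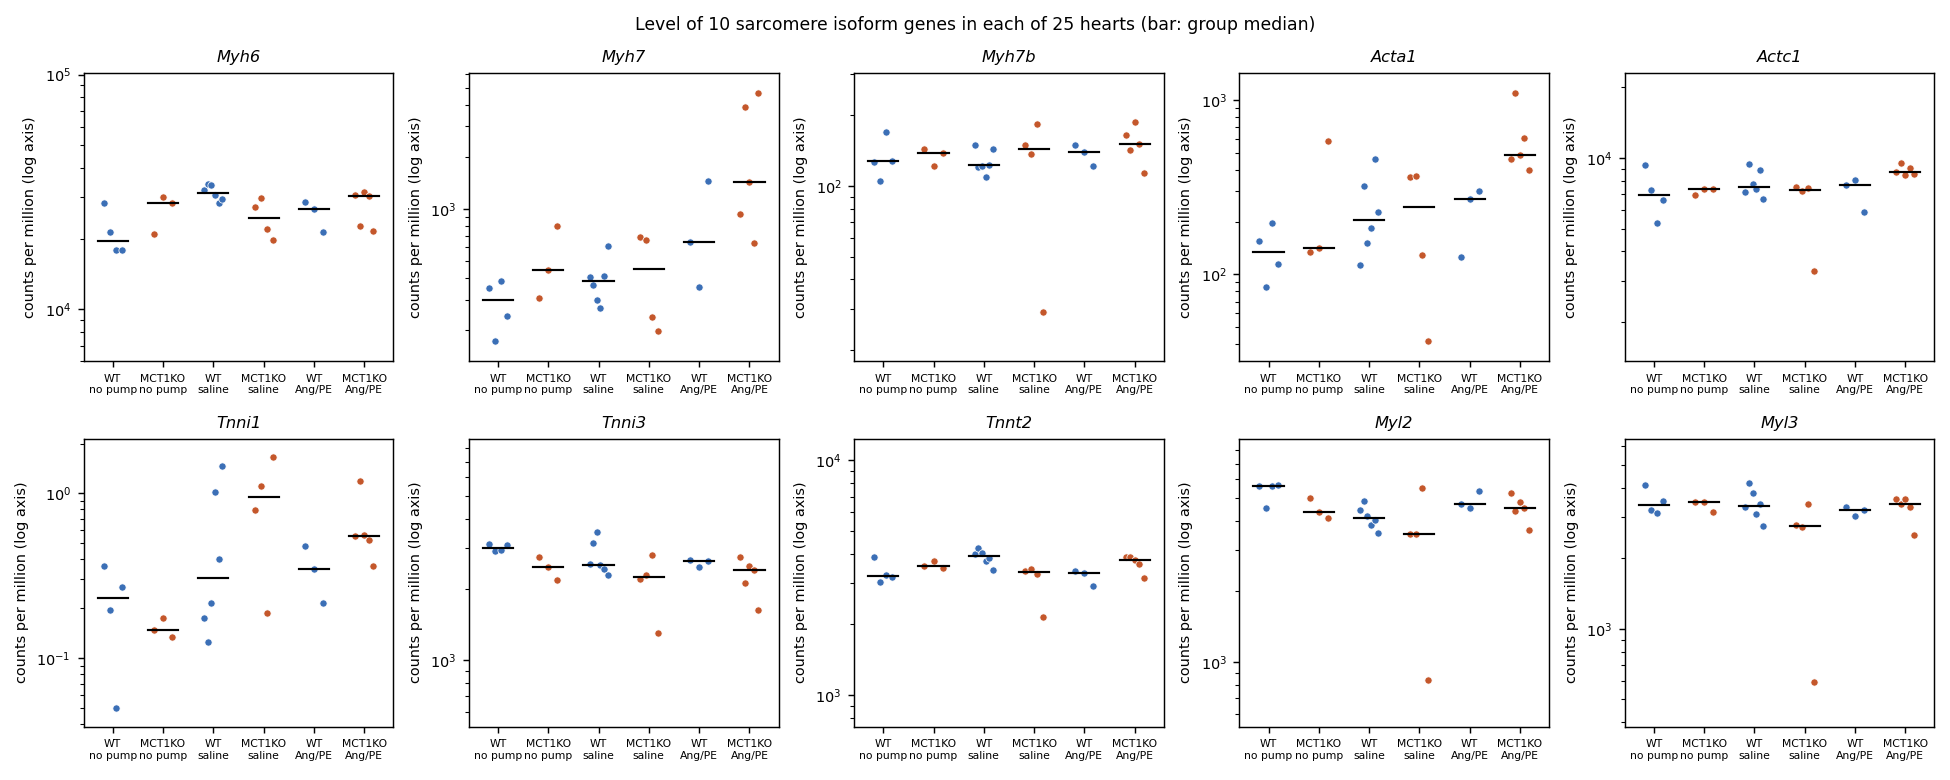
CPM (log axis) of each of the 10 genes in 25 hearts, by group; each point is 1 heart (blue WT, orange MCT1KO) and the bar is the group median. Myh7 reaches its highest values, 3865 and 4667 CPM, in 2 MCT1KO Ang/PE hearts, and 1 MCT1KO saline heart lies far below the others for Myh7b, Actc1, Myl2 and Myl3.

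Myh7, the fetal beta myosin heavy chain, was the only gene of the 10 that edgeR called in any comparison: it rose in MCT1KO hearts given Ang/PE against MCT1KO hearts given saline. Its level was 937, 3865, 1435, 639 and 4667 CPM in the 5 MCT1KO Ang/PE hearts and 689, 659.5, 239 and 197 CPM in the 4 MCT1KO saline hearts. Hearts 2 and 5 of the Ang/PE group stood far above the rest, while the lowest Ang/PE heart lay below the 2 highest saline hearts, so the groups overlapped. The same hearts 2 and 5 had the highest summed fibroblast markers (Col1a1, Dcn, Pdgfra and Postn) of all 25 hearts, 1827 and 1628 CPM, against 528 to 1334 CPM in the other 23, and all 4 of those markers stood above 1 CPM in every heart. Heart 2 also had 379 CPM of smooth muscle markers, against 111 to 252 CPM in the other 4 hearts of its group. The part of these cells in the Myh7 level was not tested. The log2 fold change was 2.37 ± 0.59 (SE), a 5.18-fold difference with a 95% interval of 1.15 to 3.59 on the log2 scale (adjusted p = 0.0268, edgeR quasi-likelihood test over all tested genes). Of all tested genes, 4.46% were called in this comparison. DESeq2 also called it (adjusted p = 0.000989), as it did 6.93% of genes with an adjusted p. The call was lost without MCT1KO saline heart 4 (2.12, adjusted p = 0.148), without Ang/PE heart 2 (2.10, 0.0507) and without Ang/PE heart 5 (1.95, 0.0657). Without the 7 saline hearts with atrial markers, which leaves 1 MCT1KO saline heart assumed to vary like the other groups, it was 3.27 (adjusted p = 0.541).

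Against MCT1KO hearts without a pump, at 307, 446 and 798 CPM, the same Ang/PE hearts gave a Myh7 log2 fold change of 2.16 ± 0.65 (SE, adjusted p = 0.133). DESeq2 called this difference (adjusted p = 0.0206), and without any saline heart in the fit it was 2.16 (adjusted p = 0.237, edgeR). With Xist as a covariate it was 2.12 (adjusted p = 0.292, edgeR), where no MCT1KO heart without a pump was Xist-positive. These comparisons share the MCT1KO Ang/PE hearts. WT hearts given Ang/PE held 643, 356 and 1458 CPM, WT hearts without a pump 352, 172, 386 and 242 CPM, and the 6 WT saline hearts ran from 268 through a median of 385 to 613 CPM. Hearts 1 and 3 of the WT Ang/PE group lay above every WT control heart, heart 1 narrowly, and heart 2 lay within their range. The WT log2 fold changes for Ang/PE were 1.06 ± 0.56 (SE, adjusted p = 0.308) against saline and 1.51 ± 0.62 (SE, adjusted p = 0.481) against no pump. MCT1KO over WT within Ang/PE was 1.50 ± 0.63 (SE, adjusted p = 0.711), and the difference between genotypes in the Ang/PE step against saline was 1.31 ± 0.81 (SE, adjusted p = 0.472). Neither a genotype difference nor its absence is shown at this spread, since the 95% interval of that last value ran from -0.37 to 3.00. Because these are whole-tissue RNA counts, more RNA per cell and a larger share of cells holding the RNA cannot be told apart.

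Myh6, the adult alpha heavy chain, did not show the opposite pattern. It stood at 30824, 22573, 31484, 30473 and 21619.8 CPM in MCT1KO Ang/PE hearts and 27158, 29902, 21877 and 19694 CPM in MCT1KO saline hearts, a log2 fold change of 0.15 ± 0.18 (SE, adjusted p = 0.680), or 0.32 (adjusted p = 0.788) without the 7 saline hearts. The 2 Ang/PE hearts with the highest Myh7 had the 2 lowest Myh6 levels of their group. WT Ang/PE hearts held 28577, 26874 and 21361 CPM, with log2 fold changes of -0.29 ± 0.19 (SE, adjusted p = 0.398) against saline and 0.26 ± 0.20 (SE, adjusted p = 0.729) against no pump. The largest Myh6 difference was between the 2 WT control groups: 28409.6, 21251, 17842 and 17803 CPM without a pump, and 28323 to 34172 CPM (median 31397) with saline. No-pump heart 1 overlapped the saline range and the other 3 lay below it. The log2 fold change of 0.56 ± 0.17 (SE) fell just short of the threshold (adjusted p = 0.0502), where 6.61% of tested genes were called. It passed without WT no-pump heart 1 (0.72, adjusted p = 0.0112) and in DESeq2 (adjusted p = 0.00733). In the fit without the 7 saline hearts with atrial markers it was 0.62 (adjusted p = 0.209).

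The Myh7/Myh6 ratio of counts needs no library scaling, since both counts come from the same heart. Adult alpha myosin RNA dominated everywhere, and the ratio was 1.24%, 0.810%, 2.17% and 1.36% in WT and 1.47%, 1.48% and 2.80% in MCT1KO hearts without a pump. With saline it was 0.873% to 2.08% (median 1.17%) in 6 WT hearts and 2.54%, 2.21%, 1.09% and 0.999% in MCT1KO hearts. With Ang/PE it was 2.25%, 1.33% and 6.82% in WT and 3.04%, 17.1%, 4.56%, 2.10% and 21.6% in MCT1KO hearts. Thus 1 WT and 4 MCT1KO Ang/PE hearts exceeded the highest control ratio of 2.80%, and MCT1KO hearts 2 and 5 had the highest ratios. The mean log2 ratio was 2.03 higher in MCT1KO Ang/PE than in MCT1KO saline hearts (exact two-sided permutation p = 0.0476, adjusted p = 0.286 over 18 ratio tests), so it did not pass. Against MCT1KO hearts without a pump the difference was 1.81 (exact permutation p = 0.0714, smallest possible 0.0357). In WT hearts it was 1.17 against saline (exact permutation p = 0.0952) and 1.06 against no pump (p = 0.171). Without the 7 saline hearts with atrial markers the difference against saline was 2.55 in MCT1KO hearts, where 1 saline heart is left. In WT hearts it was then 1.23 (exact permutation p = 0.200, the smallest possible with the hearts kept). MCT1KO over WT within Ang/PE was 1.23 (exact permutation p = 0.321). The spread within the Ang/PE groups was wide, with an SD of the log2 ratio of 1.51 in MCT1KO and 1.21 in WT hearts. Myh6 and Myh7 are neighbouring genes of very similar sequence, and how the authors' counting assigned reads that match both is not given in the sources used here.

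**Figure D2:**
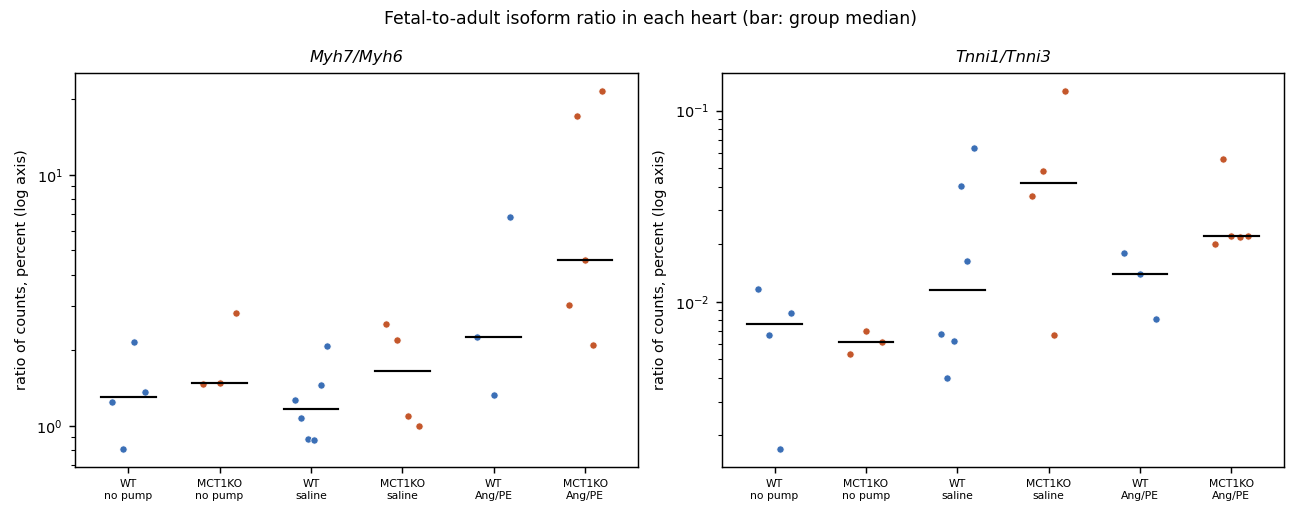
Ratio of fetal to adult isoform counts in percent (log axis) for Myh7/Myh6 and Tnni1/Tnni3, by group; each point is 1 heart (blue WT, orange MCT1KO) and the bar is the group median. Myh7/Myh6 is highest at 21.6% in an MCT1KO Ang/PE heart, and Tnni1/Tnni3 never passes 0.126%.

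Mhrt, a long noncoding RNA transcribed antisense within the Myh7 locus in the annotation, stood at 107 to 597 CPM over the 25 hearts. In the 5 MCT1KO Ang/PE hearts it was 448, 178, 494, 597 and 229 CPM, so hearts 2 and 5, with the most Myh7, had the least Mhrt of the group. The WT Ang/PE heart with the most Myh7 also had the least Mhrt of its group, 107 CPM. Among MCT1KO hearts without a pump the order was opposite: the heart with the most Myh7 had the most Mhrt, 468 CPM. A relation of Mhrt to Myh7 over all hearts was not tested. The libraries keep strand, but whether the counting used it is not given in the sources used here, so reads of Myh7 and Mhrt may not be fully separated. Myh7b stood at 127, 105, 170.5 and 128 CPM in WT and 144, 122 and 138 CPM in MCT1KO hearts without a pump, and 165, 143, 187, 151 and 114 CPM in MCT1KO Ang/PE hearts. MCT1KO saline hearts held 149.6, 137, 183 and 28.9 CPM, and only the last of them left the range of 105 to 187 CPM of the other 24 hearts. Its log2 fold changes in the 9 comparisons of a pair of groups ran from -0.11 to 0.28, none of them called. Its MCT1KO Ang/PE step against saline, without the 7 saline hearts with atrial markers, was -0.28 (adjusted p = 0.747).

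Acta1, the skeletal actin expressed in the fetal heart, stood at 460.1, 1097, 485, 604 and 396 CPM in MCT1KO Ang/PE hearts, above all 4 MCT1KO saline hearts (361, 367, 129 and 41.3 CPM) and all 3 WT Ang/PE hearts (125, 271 and 301 CPM). The log2 fold change against MCT1KO saline was 1.44 ± 0.59 (SE, adjusted p = 0.168), and against WT Ang/PE it was 1.39 ± 0.65 (SE, adjusted p = 0.711). Neither passed. Groups of hearts did not overlap for 5.42% of all tested genes in the first comparison and for 5.1% in the second, where 0% were called. MCT1KO hearts without a pump held 135, 143 and 583 CPM, the third of them within the Ang/PE range, and the log2 fold change against them was 1.08 ± 0.64 (SE, adjusted p = 0.510). WT hearts held 155, 84.5, 196 and 116 CPM without a pump and 113 to 459 CPM (median 206) with saline. In WT hearts Ang/PE gave -0.06 ± 0.60 (SE, adjusted p = 0.970) against saline and 0.75 ± 0.64 (SE, adjusted p = 0.767) against no pump. Without MCT1KO saline heart 4, the lowest of all 25 hearts, the MCT1KO difference against saline was 1.08 (adjusted p = 0.426). Without the 7 saline hearts with atrial markers it was 2.23 (adjusted p = 0.572), and 0.12 (adjusted p = 0.961) in WT hearts. With Xist as a covariate, the MCT1KO difference against no pump was 0.43 (adjusted p = 0.906); no MCT1KO heart without a pump was Xist-positive.

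Actc1, the adult cardiac actin, stood at 8691, 9483, 8483, 9085 and 8512 CPM in MCT1KO Ang/PE hearts, a narrow range above that of the other MCT1KO groups. MCT1KO saline hearts held 7499, 7239, 7424 and 3289.6 CPM and MCT1KO hearts without a pump 6977, 7342 and 7364 CPM. The log2 fold changes were 0.48 ± 0.19 (SE, adjusted p = 0.157) against saline and 0.29 ± 0.21 (SE, adjusted p = 0.609) against no pump. In the latter comparison 0.503% of genes were called and 8.45% had groups that did not overlap. Actc1 was also above WT Ang/PE hearts (7628, 8013 and 5905 CPM), with 0.30 ± 0.21 (SE, adjusted p = 0.776). It was not above the WT control hearts, which held 5290 to 9334 CPM without a pump and 6679 to 9386 CPM with saline. Without MCT1KO saline heart 4 the first value was 0.26 (adjusted p = 0.472), and without all 7 saline hearts with atrial markers 0.25 (adjusted p = 0.810). In the MCT1KO Ang/PE hearts both actins lay above MCT1KO saline and WT Ang/PE hearts, and neither difference passed the test. The coding sequences of Acta1, Actc1 and the smooth muscle actin gene are closely alike, so reads shared between them may have been assigned or dropped in ways not given in the sources used here.

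**Figure D3:**
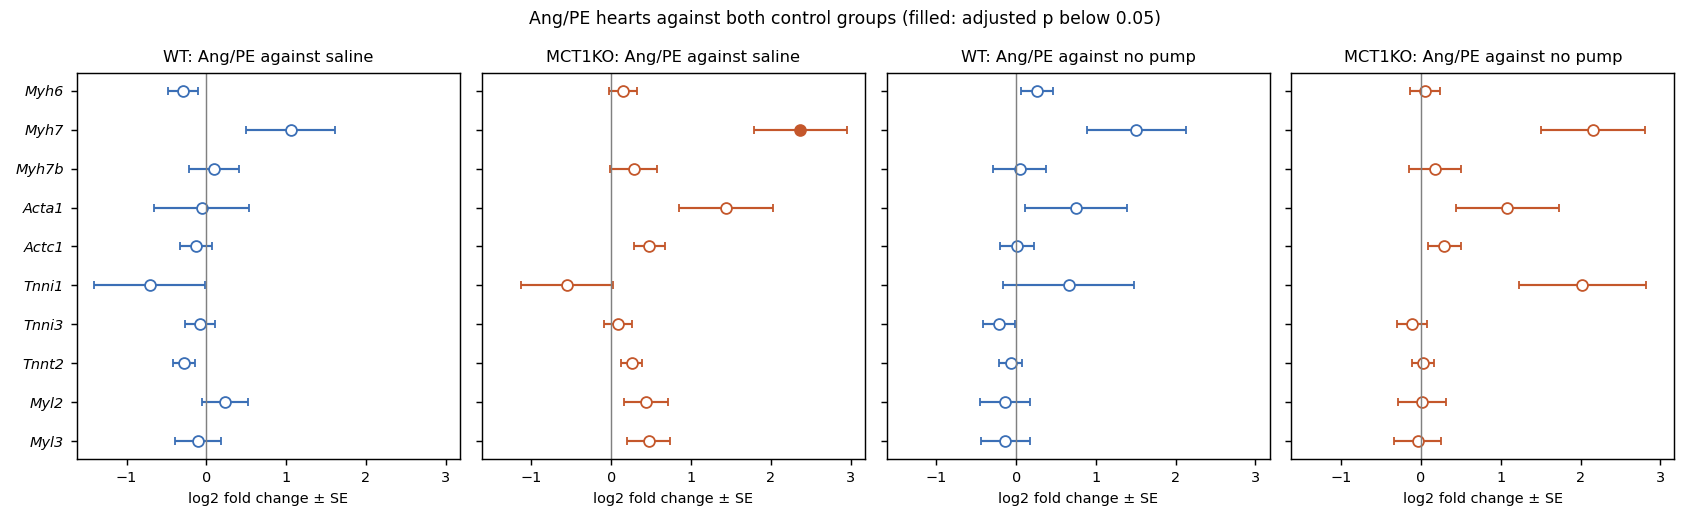
Log2 fold change ± SE of each gene in Ang/PE hearts against saline and against no pump, in WT (blue) and MCT1KO (orange) hearts; filled points passed adjusted p below 0.05. Myh7 in MCT1KO hearts against saline, at 2.37, is the single filled point.

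Tnni1, the fetal troponin I, was close to the detection limit in every heart. MCT1KO hearts without a pump held 3, 3 and 3 counts (0.147, 0.176 and 0.134 CPM) and WT hearts without a pump 8, 4, 1 and 5 counts. MCT1KO saline hearts held 15, 17, 3 and 28 counts (0.792, 1.11, 0.187 and 1.65 CPM) and WT saline hearts 2 to 30 counts (0.125 to 1.47 CPM). The 5 saline hearts with the most Tnni1, 0.792 to 1.65 CPM, had atrial marker sums of 717 to 4040 CPM, and WT saline heart 3, with a sum of 745 CPM, held 0.217 CPM. The part of atrial muscle in the Tnni1 level was not tested. The log2 fold change of MCT1KO saline over no pump was 2.58 ± 0.78 (SE, adjusted p = 0.183), in a comparison where 0.00566% of genes were called and 8.6% had groups that did not overlap. It passed without MCT1KO saline heart 3 (2.92, adjusted p = 0.0309), whose atrial sum was 1.75 CPM, and it was 0.30 (adjusted p = 0.991) when that heart alone was kept. MCT1KO Ang/PE hearts held 6, 17, 7, 7 and 6 counts (0.549, 1.19, 0.557, 0.523 and 0.360 CPM), all above the MCT1KO hearts without a pump, with 2.02 ± 0.80 (SE, adjusted p = 0.261). WT Ang/PE hearts held 8, 5 and 3 counts. Intervals and values at this depth carry the counting error of a few reads.

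Tnni3, the adult cardiac troponin I, stood at 3111, 2918, 2930.3 and 3085 CPM in WT hearts without a pump, above 2754, 2488 and 2185 CPM in MCT1KO hearts without a pump and 2669, 2488 and 2632 CPM in WT Ang/PE hearts. The log2 fold changes were -0.28 ± 0.20 (SE, adjusted p = 0.596) and -0.21 ± 0.20 (SE, adjusted p = 0.792). Groups that did not overlap were found for 11.5% of all tested genes in the first comparison and 10.7% in the second, and 0% and 0% were called. MCT1KO Ang/PE hearts held 2750.2, 2125, 2515, 2410.2 and 1626 CPM, with 0.08 ± 0.17 (SE, adjusted p = 0.839) against saline. Without MCT1KO saline heart 4 the sign of that value turned, to -0.10 (adjusted p = 0.833), and without the 7 saline hearts it was -0.30 (adjusted p = 0.712). In the ratio Tnni1/Tnni3 the largest value in any heart was 0.126%, in MCT1KO saline heart 4. MCT1KO hearts without a pump had 0.00535% (95% Clopper-Pearson interval 0.00110% to 0.0156%), 0.00706% (95% Clopper-Pearson interval 0.00146% to 0.0206%) and 0.00614% (95% Clopper-Pearson interval 0.00127% to 0.0179%), intervals that cover counting error only. In Ang/PE hearts the ratio was 0.0199%, 0.0558%, 0.0222%, 0.0217% and 0.0221% in MCT1KO and 0.0179%, 0.0140% and 0.00814% in WT hearts, values that did not overlap. They rest on 3 to 17 Tnni1 counts, and counting intervals did overlap. The 95% Clopper-Pearson interval was 0.00732% to 0.0434% in MCT1KO heart 1 and 0.00772% to 0.0352% in WT heart 1. The difference of 1.03 in mean log2 ratio between these groups had an exact permutation p of 0.0357, the smallest that 5 against 3 hearts allow, and an adjusted p of 0.286. MCT1KO Ang/PE against no pump gave 2.08 (exact permutation p = 0.0357, also the smallest possible, adjusted p = 0.286). Against saline the MCT1KO difference was -0.42 (exact permutation p = 0.603) with all hearts. It was 1.96 without the 7 saline hearts, where 1 saline heart is left. Of the 18 ratio tests, 3 had an exact p below 0.05 and 0 passed the adjustment.

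Tnnt2, cardiac troponin T, had the smallest biological coefficient of variation of the 10 genes. WT Ang/PE hearts (3374, 3299 and 2906 CPM) lay below WT saline hearts (3428 to 4226 CPM, median 3929.6), and MCT1KO Ang/PE hearts held 3894, 3866, 3748, 3627 and 3163 CPM against 3391, 3456, 3268 and 2153 CPM with saline. The Ang/PE step was -0.28 ± 0.13 (SE, adjusted p = 0.261) in WT and 0.25 ± 0.13 (SE, adjusted p = 0.259) in MCT1KO hearts. With the 7 saline hearts left out the steps were -0.35 (adjusted p = 0.429) and 0.16 (adjusted p = 0.842). In the WT comparison with all hearts 0.017% of genes were called and 13.6% had groups that did not overlap. The difference between the steps, 0.53 ± 0.19 (SE, adjusted p = 0.295), had the smallest edgeR p of the 10 genes in that interaction (0.00813 unadjusted) and did not pass. Here 0% of genes were called. With saline alone, MCT1KO over WT was -0.34 ± 0.12 (SE, adjusted p = 0.191), where 0% of genes were called and 2.88% had groups that did not overlap. Without MCT1KO saline heart 4 that value was -0.19 (adjusted p = 0.722).

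Myl2, the ventricular regulatory light chain, stood at 5608, 4516, 5614 and 5647 CPM in WT and 4980.4, 4339 and 4101 CPM in MCT1KO hearts without a pump. With saline it was 3526 to 4847 CPM (median 4102) in WT hearts and 3520.0, 3489, 5504 and 839 CPM in MCT1KO hearts. The last of these, MCT1KO saline heart 4, was far below the other 24 hearts, and it is the heart with the highest atrial marker sum, 4040 CPM. The MCT1KO saline heart without atrial markers, heart 3, had the highest Myl2 of its group. Ang/PE hearts held 4700.3, 4512 and 5354 CPM in WT and 5227, 4409, 4779.9, 4515 and 3662 CPM in MCT1KO mice. The MCT1KO Ang/PE step was 0.44 ± 0.28 (SE, adjusted p = 0.388) with all hearts, and without MCT1KO saline heart 4 it was 0.11 (adjusted p = 0.802). Without all 7 saline hearts with atrial markers its sign turned, to -0.29 (adjusted p = 0.695).

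Myl3, the ventricular essential light chain, followed Myl2. It was 2770.3, 2707, 3406 and 592 CPM in MCT1KO saline hearts, 2758 to 4193 CPM (median 3354) in WT saline hearts, and 3591, 3415, 3582, 3291 and 2506 CPM in MCT1KO Ang/PE hearts. MCT1KO over WT within saline was -0.53 ± 0.26 (SE, adjusted p = 0.304), and without MCT1KO saline heart 4 it was -0.20 (adjusted p = 0.757). The MCT1KO Ang/PE step against saline was 0.47 ± 0.27 (SE, adjusted p = 0.345) with all hearts and -0.06 (adjusted p = 0.951) without the 7 saline hearts, where the sign turned. Hearts without a pump held 4097, 3216, 3132 and 3502 CPM in WT and 3490.2, 3486 and 3150.4 CPM in MCT1KO mice, and WT Ang/PE hearts 3300.5, 3024 and 3206 CPM. No difference in Myl3 between Ang/PE hearts and either control group passed the test in either genotype (adjusted p = 0.345 to 0.978).

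**Figure D4:**
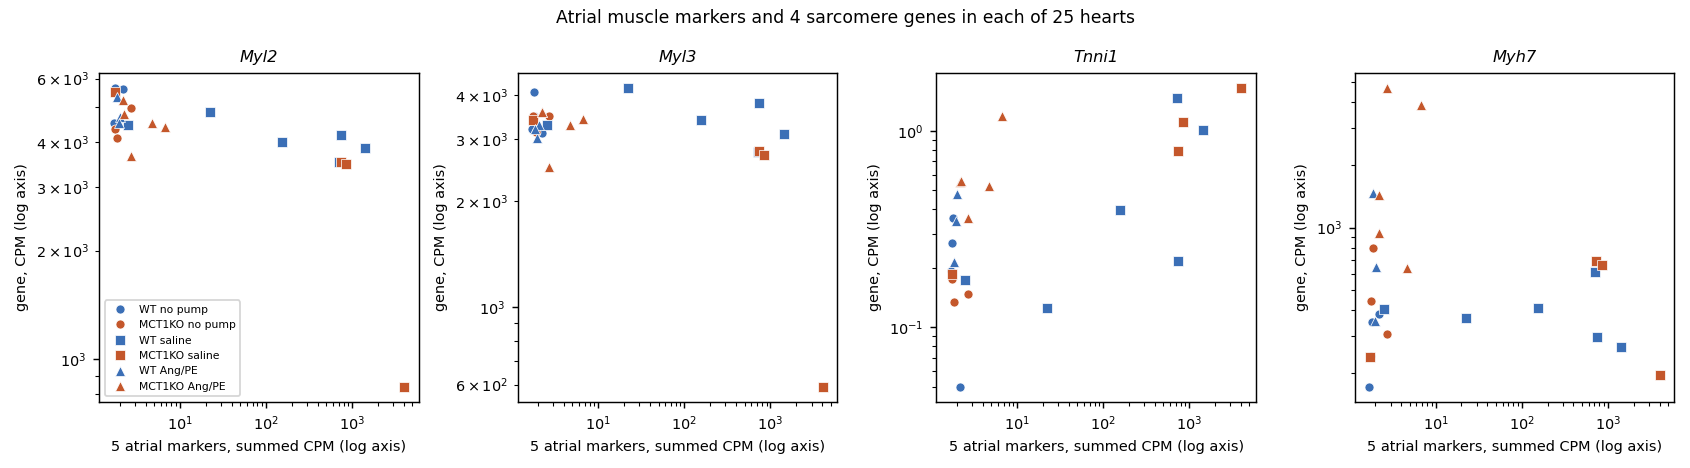
CPM of Myl2, Myl3, Tnni1 and Myh7 (log axis) against the summed CPM of 5 atrial markers (log axis) in each of 25 hearts; colour gives genotype (blue WT, orange MCT1KO) and shape treatment (circle no pump, square saline, triangle Ang/PE). Only saline hearts pass 50 CPM of atrial markers, and the heart at 4040 CPM has the lowest Myl2 and Myl3.

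Counted over the 10 genes, 1 was called in MCT1KO Ang/PE against saline (Myh7, higher) and 0 in the other 11 comparisons by edgeR. At an unadjusted p below 0.05 there were 0 of 10 for MCT1KO over WT without a pump (against 12.2% of all tested genes), 2 with saline (17%) and 2 with Ang/PE (6.92%). For Ang/PE against saline there were 1 in WT (19.1% of all genes) and 3 in MCT1KO hearts (20.4%), for saline against no pump 2 (24.3%) and 1 (12.1%), and for Ang/PE against no pump 1 (9.02%) and 2 (13.1%). Each of these counts lay within 2 genes of what the share over all genes gives for 10. DESeq2 called 1 in each of MCT1KO Ang/PE against saline (Myh7, where it called 6.93% of genes with an adjusted p), MCT1KO Ang/PE against no pump (Myh7, 2.18%) and WT saline against no pump (Myh6, 14.1%). It called 0 of 10 in the other 9 comparisons. There the share of all genes it called was 0.161%, 0.897% and 0.0283% for MCT1KO over WT without a pump, with saline and with Ang/PE, 4.64% and 0.142% for WT Ang/PE against saline and no pump, and 1.18% for MCT1KO saline against no pump. For the interactions it was 0.0815% (Ang/PE against saline), 0.0283% (Ang/PE against no pump) and 2.5% (saline against no pump). In MCT1KO Ang/PE against saline, groups of hearts did not overlap for 2 of the 10, both actins, and for 5.42% of all tested genes. It was also 2 of 10 for MCT1KO Ang/PE against no pump (Actc1 and Tnni1, against 8.45% of all tested genes). MCT1KO saline against no pump gave 2 (Tnni1 and Tnnt2, against 8.6%), as did MCT1KO over WT in Ang/PE (both actins, against 5.1%). It was 1 of 10 for MCT1KO over WT without a pump (11.5%), WT Ang/PE against saline (13.6%) and WT Ang/PE against no pump (10.7%). It was 0 for MCT1KO over WT with saline (2.88%) and for WT saline against no pump (10.3%).

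In MCT1KO hearts the Ang/PE step against saline was positive for 9 of the 10 genes, with a median log2 fold change of 0.36 against -0.01 over all tested genes. In WT hearts 3 of 10 were positive, with a median of -0.09 against -0.01. The interaction of these steps was positive for 10 of 10 (median 0.49), with 2 genes, Tnnt2 and Actc1, at an unadjusted p below 0.05, as were 13.5% of all tested genes. These tallies rest in part on MCT1KO saline heart 4: without it the MCT1KO step was positive for 7 of 10 (median 0.11) and the interaction for 7 of 10 (median 0.36). Without the 7 saline hearts with atrial markers they were positive for 6 of 10 (median 0.20) and 7 of 10 (median 0.47), and the WT step for 5 of 10 (median -0.04). The interaction of the saline step against no pump, which shares the saline hearts, was negative for 9 of 10 (median -0.38) and for 6 of 10 without MCT1KO saline heart 4 (median -0.13). Myh6 and Tnnt2 were at an unadjusted p below 0.05 with all hearts, as were 17.2% of all tested genes, and 0.00566% of all genes were called there. Against no pump the interaction of the Ang/PE step, which uses no saline heart, had a median of 0.14, 0 genes at an unadjusted p below 0.05 (against 5.43% of all tested genes) and 0% of all genes called. The signs of the 10 genes are not independent, since several vary together from heart to heart.

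Among 41 other sarcomere genes 33 were tested. In MCT1KO Ang/PE against saline 3 rose: Myom2 (0.75 ± 0.16 (SE, adjusted p = 0.0141)) and Myom1 (0.64), which link thick filaments at the M-line, and Actn2 (0.68), the Z-disc crosslinker. In the same comparison 3 fell: Tcap (-0.65), which caps titin, and the atrial light chains Myl7 and Myl4, themselves markers of the atrial list. These are 6 of 33, in a comparison where 4.46% of all genes were called. In WT saline against no pump, where 6.61% of all genes were called, 4 rose, among them the titin gene Ttn (0.85 ± 0.19 (SE, adjusted p = 0.0158)) and again Myl7 and Myl4, and 1 fell, the actin-capping Capza2 (-0.36). In the other 10 comparisons edgeR called 0 of 33, with 2 to 10 at an unadjusted p below 0.05, where the share over all genes was 5.43% to 19.1%. DESeq2 called 0 to 3 of the 33 there, and 0.0283% to 4.64% of genes with an adjusted p. The median log2 fold change of the 33 was 0.20 in MCT1KO Ang/PE against saline and 0.28 in WT saline against no pump. Among 21 regulators of these isoforms, all tested, Tead1, a TEAD factor of MCAT elements, rose (0.49 ± 0.12 (SE, adjusted p = 0.0212)) and Tbx5 fell (-1.53 ± 0.39 (SE, adjusted p = 0.0296)) in MCT1KO Ang/PE against saline. Nkx2-5 (0.52), Gata4 (0.57) and Mef2d (0.43), cardiac transcription factors, rose in WT saline against no pump. In the other 10 comparisons edgeR called 0 of 21, with 0 to 8 at an unadjusted p below 0.05 (5.43% to 19.1% of all genes), and DESeq2 called 0 to 3. The 3 were Mef2d (-0.40), Gata4 (-0.65) and Nkx2-5 (-0.60), lower in WT Ang/PE against saline, where DESeq2 called 4.64% of genes. That comparison shares the WT saline hearts in which edgeR called them higher than without a pump. In MCT1KO Ang/PE against no pump, which compares no saline heart and where it called 2.18% of genes, DESeq2 called 3 of the 33 (Tnnt1, 1.00, adjusted p = 0.00558, Myom2, 0.61, adjusted p = 0.0318, and Tcap, -0.67, adjusted p = 0.00460) and 1 of the 21 (Dio2, 3.31, adjusted p = 0.0336), named here after their values had been seen. Sex was uneven in that comparison: Xist passed 100 CPM in 0 of the 3 MCT1KO no-pump and 4 of the 5 MCT1KO Ang/PE hearts. There edgeR called 89 of all tested genes, and 11 with Xist as a covariate. The part of sex in these DESeq2 calls was not tested. All of the edgeR calls of genes on the 2 lists are in comparisons with saline hearts. Without the 7 saline hearts with atrial markers, which leaves 2 WT and 1 MCT1KO saline hearts, edgeR called 0 of 33, 0 of 21 and 0 of all tested genes in either comparison. The log2 fold changes in MCT1KO Ang/PE against saline were then 0.89 for Myom2, 0.46 for Myom1, 0.49 for Actn2, -0.59 for Tcap and 0.58 for Tead1, in the same direction as with all hearts, and 0.43 for Tbx5, whose sign turned, as did those of Myl7 and Myl4. In WT saline against no pump they were 0.97 for Ttn, -0.32 for Capza2, 0.43 for Nkx2-5, 0.54 for Gata4 and 0.47 for Mef2d. The atrial light chains gave 1.98 for Myl4 and 4.00 for Myl7 there, values that rest largely on 1 of the 2 hearts kept. WT saline heart 2 held 11.2 CPM of Myl4 and 4.58 CPM of Myl7. WT saline heart 1 held 1.45 and 0.465 CPM, its Myl4 within the 1.45 to 1.70 CPM of WT hearts without a pump.

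How the genes varied together was read from log2 CPM with the group mean removed, over 25 hearts and 45 pairs, with hearts permuted within groups (100000 resamples). Myl2 and Myl3 moved most closely (r = 0.967, rho = 0.788, adjusted p = 0.000750 and 0.00810), and r was 0.900 without MCT1KO saline heart 4 and 0.855 without the 2 hearts farthest from the Myl2 median. Tnnt2 and Myl3 (r = 0.885, rho = 0.888, adjusted p = 0.00270 and 0.00158), Actc1 and Tnnt2 (r = 0.849, rho = 0.751, adjusted p = 0.0140 and 0.0137) and Tnni3 and Myl3 (r = 0.847, rho = 0.848, adjusted p = 0.000750 and 0.00158) came next among pairs that passed by both measures. Without the 2 farthest hearts their r was 0.748, 0.766 and 0.754. Altogether 9 of 45 pairs passed by both measures, all positive and all among the adult genes Myh6, Actc1, Tnni3, Tnnt2, Myl2 and Myl3. The fetal genes Myh7 and Acta1 gave r = 0.521 and rho = 0.511, which did not pass (adjusted p = 0.0619 and 0.0819); r was 0.700 without the 2 hearts farthest from the Myh7 median, 0.430 without the 2 farthest in Acta1 and 0.466 without MCT1KO saline heart 4. Myh7 and Myh6 gave r = -0.149 (rho = -0.102, adjusted p = 0.675 and 0.891) within groups. The sign turned with the hearts left out, with r = -0.287 without the 2 farthest from the Myh6 median and 0.0387 without the 2 farthest in Myh7.

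**Figure D5:**
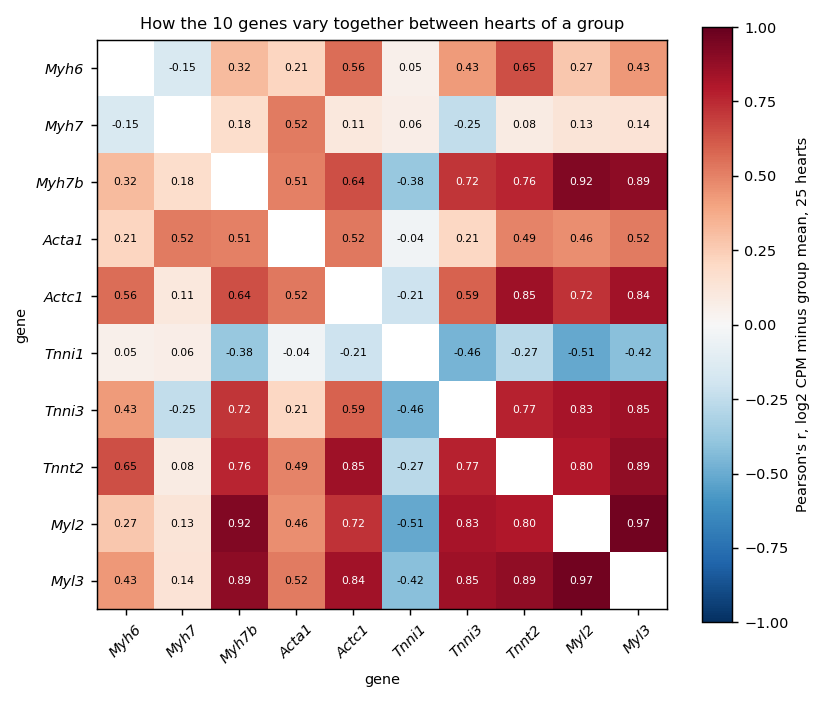
Pearson's r between each pair of the 10 genes over 25 hearts, from log2 CPM with the group mean removed; red is positive and blue negative. The adult genes form a positive block led by Myl2 and Myl3 (0.97). Tnni1 has negative r with Tnni3, Myl2 and Myl3 (-0.46, -0.51 and -0.42), none of which passed (adjusted p = 0.175, 0.148 and 0.349, permutation within groups).

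The genes whose log2 CPM was most like each fetal or adult isoform were taken among 12806 tested genes with a symbol and a mean log2 CPM above 1, by Pearson's r over 25 hearts with groups left in, as a description. For Myh7 they were Tulp4 (r = 0.902), Thbs4 (r = 0.890), Ankrd1 (r = 0.880), Nlrc3 (r = 0.862) and Prnp (r = 0.861). Thbs4, a thrombospondin of the matrix, stood at 87.8 ± 81.2 CPM (SD, n = 5) in MCT1KO Ang/PE hearts and 3.78 ± 1.26 CPM (SD, n = 4) in MCT1KO saline hearts. Ankrd1, a stretch-responsive sarcomere protein, was 1261, 4219, 1042, 914 and 2523 CPM in the MCT1KO Ang/PE hearts, highest in the hearts 2 and 5 that led in Myh7. The natriuretic peptide gene Nppa was 359, 5144, 313, 491 and 1759 CPM in the same hearts, again highest in hearts 2 and 5. It was also high where Myh7 was not: 1689, 1366, 62.5 and 3706 CPM in MCT1KO saline hearts and up to 1459 CPM in WT saline hearts, with the high values in hearts that held atrial marker RNA. For Myh6 the list was Atg9a (r = 0.946), Speg (r = 0.938), Cluh (r = 0.935), Ryr2 (r = 0.931) and Sbf1 (r = 0.927), among them the sarcoplasmic calcium channel Ryr2 and the muscle kinase Speg. For Acta1 it was E230013L22Rik (r = 0.874), Lrp11 (r = 0.860), Prnp (r = 0.850), Vps37c (r = 0.842) and Rrp12 (r = 0.831), and for Tnni1, on few counts, Ddr1 (r = 0.846), Ndnf (r = 0.842), Tmem51 (r = 0.837), Sec23b (r = 0.828) and Pam (r = 0.823). Prnp was in the lists of both Myh7 and Acta1.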

How the data were processed

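The authors deposited 1 table of raw read counts per gene for 25 hearts, keyed by Ensembl identifier, and every column matched a sample title (0 unmatched). Per the submitters' processing notes, STAR 2.7.9a, cutadapt 1.16, featureCounts 1.6.3, DESeq2 1.42.1 and the builds GRCm39 and mm39 were named, with no roles; annotation, strand setting and treatment of reads that match several genes are not given in the sources used here. Per the labels' protocols, total RNA of 5 to 500 ng was depleted of ribosomal RNA and made into stranded libraries.

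Groups came from the titles. Names and transcript lengths came from GENCODE M21 (GRCm38), used for no coordinates of counted genes, and sequences from RefSeq tables (GRCm38.p6). The 10 genes, the gene lists and the marker lists were chosen with earlier results of these data known. Genes passing edgeR's filterByExpr by group (17682) were fitted in 1 model of 6 groups with edgeR 4.0.16 (TMM, robust glmQLFit, glmQLFTest) in R 4.3.3, with 19 residual degrees of freedom. P-values were two-sided and adjusted by Benjamini-Hochberg over all tested genes within each of 12 comparisons (9 of a pair of groups, 3 interactions), with calls at an adjusted p below 0.05. The SE came from the F statistic, and log2 CPM used a prior count of 2. Within-heart ratios were tested by exact two-sided permutation over hearts, adjusted over 18 tests. Methods were tested on simulated data. Named genes are the 10, Slc16a1, called list genes (at most the 6 of smallest p per list and comparison) and the 5 genes most like each of 4 isoforms; Nppa and Mhrt were added after their values had been seen. Of the called list genes 1 is not reported here by name.

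Replicate hearts of a group differed beyond sampling noise (chi-square per degree of freedom of at least 3.33 over 43 pairs). The labels do not state how hearts were collected, so p-values measure only the spread between these hearts. Same-numbered hearts of different groups did not deviate together (mean correlations of -0.157 to 0.101 over comparisons), so numbers were not treated as pairs. The settings varied were the scaling (RLE), the tool (DESeq2 1.42.0), the low-count filter (none), a fit of only the groups compared, a replicate block, a non-robust fit, no mitochondrial genes, Xist or the mean log2 CPM of atrial markers as a covariate, a pseudocount of 10 counts for ratios, and leaving out each heart. Leaving out saline hearts with an atrial marker sum above 50 CPM, leaving saline hearts out of the fit, and both covariates together were chosen after seeing the data.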

Additional observations from a re-analysis of the deposited data

Results flagged for a closer look

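In groups of 4 to 10 hearts, each gene's and ratio's highest and lowest heart was compared with the rest of its group by Dixon's gap test. Of 48 tests 7 were past the critical value, where chance gives about 1 in 20, or 2.4. MCT1KO saline heart 4 accounted for 4 of them, with low log2 CPM of Myh7b (4.86 against 7.10 to 7.52 in the other hearts of its group), Actc1 (11.68 against 12.82 to 12.87), Tnnt2 (11.07 against 11.67 to 11.76) and Myl3 (9.21 against 11.40 to 11.73). That heart had the highest sums of atrial, adipocyte and smooth muscle markers of all 25 hearts (4040, 1510.3 and 767 CPM, the last against at most 379 CPM elsewhere), and their part in the low values was not tested. WT no-pump heart 2 was low in Myl2 (12.14 against 12.45 to 12.46 log2 CPM) and MCT1KO Ang/PE heart 5 in Myl3 (11.29 against 11.68 to 11.81 log2 CPM). MCT1KO Ang/PE heart 2 was high in the log2 ratio Tnni1/Tnni3 (-10.81 against -12.29 to -12.14), which rests on 17 Tnni1 counts.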

How the results depend on the processing

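The log2 fold changes of the 10 genes were recomputed 2608 times over comparisons and alternatives. The side of the threshold and the direction of calls stayed in 2593, a call was lost in 9 and gained in 6, and 0 reversed; the 186 recomputed ratio differences stayed uncalled. Values uncalled in both settings changed sign 171 times. In MCT1KO Ang/PE against saline the 1 gene called, Myh7, became 0 without the low-count filter (2.36, adjusted p = 0.0615), in a fit of only the groups compared (2.36, adjusted p = 0.234), with the atrial covariate (2.60, adjusted p = 0.485), with atrial and Xist covariates (2.61, adjusted p = 0.488), without saline hearts with atrial markers (3.27, adjusted p = 0.541), and over single hearts left out ranged from 0 to 1. The cause was not tested, except that leaving out saline hearts leaves 1 heart in that group. With the replicate number as a replicate block it also became 0 (2.01, adjusted p = 0.0680). The block changed no other call of the 10 genes, and in no comparison did every heart correlate best with its own number. All tested genes called in MCT1KO Ang/PE against saline went from 788 to 534 with the block and to 452 without the low-count filter. They went to 1 in the fit of only the groups compared, to 1 with the atrial covariate and to 1 with atrial and Xist covariates. In WT saline against no pump 0 became 1 with DESeq2 (Myh6, 0.56, adjusted p = 0.00733), 2 in a fit of only the groups compared (Myh6, 0.56, adjusted p = 0.0220, and Myl2, -0.37, adjusted p = 0.0457) and 0 to 1 over hearts left out. DESeq2 called 1 in MCT1KO Ang/PE against no pump (Myh7), and MCT1KO saline against no pump gave 0 to 1 over hearts left out (Tnni1). Among the 10 genes depth limits Tnni1 most, at 1 to 30 counts per heart.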

Other observations

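The count table also has rows for the microRNA precursors of the myosin introns, which total RNA libraries can hold as part of the unspliced host transcript. Mir208a, within Myh6, stood at 2.30 to 8.70 CPM over all hearts. Mir208b, within Myh7, held 0.0914, 0.209, 0.0796, 0.224 and 1.02 CPM in the 5 MCT1KO Ang/PE hearts and at most 0.158 CPM in the other 20. These were 1 to 17 reads, the 17 all in heart 5, against 0 to 3 reads in hearts of the other groups. Nppb, the brain natriuretic peptide gene, was 425, 805, 281, 388 and 441 CPM in MCT1KO Ang/PE hearts, 159, 229 and 855 CPM in WT Ang/PE hearts and 210.3, 158, 297 and 80.2 CPM in MCT1KO saline hearts. Without a pump it was 290.0, 256, 541 and 198 CPM in WT hearts, of which 2 lay within the range of the MCT1KO Ang/PE hearts, and 249.8, 45.3 and 162 CPM in MCT1KO hearts. WT saline hearts held 99.1 to 166 CPM. Within the Ang/PE groups the heart with the most Nppb was WT heart 3, which had the most Myh7 of its group, and MCT1KO heart 2, which had the second most. These values were chosen after they had been seen and carry no test.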
